A study of Mus musculus with 12 samples.

Results

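The response of PBRM1 knockout (KO) cells to TGFβ1 was measured in 4T1, a mouse mammary carcinoma line that the labels class as triple negative. It was read from 6 of the 12 libraries of the series, chosen by their titles: 3 of PBRM1 KO cells with 5 ng/ml TGFβ1 for 4 days and 3 of untreated PBRM1 KO cells. The other 6 libraries, control 4T1 cells with and without TGFβ1, served for the shared estimate of spread and for the test of a difference between genotypes. All cells were grown in RPMI-1640 with serum, and each group held 3 biological replicates, per the labels. The genotype label reads PBRM1 KO, and library names carry the prefix sg, which is not spelled out; the position of the edit in Pbrm1 and whether the cells were a single clone or a pool are not given in the sources used here. Untreated libraries were titled 0 h, whereas the treatment protocol describes parallel culture with or without TGFβ1, so the agent and the days of culture cannot be told apart if the titles hold.

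TGFβ1 is a secreted cytokine that binds a pair of kinase receptors, whose activity phosphorylates SMAD2 and SMAD3; these enter the nucleus with SMAD4 and act on target genes together with other factors such as AP-1. In mammary epithelial cells the pathway is known for slowing division, for loss of cell-to-cell junctions and gain of mesenchymal traits, and for building and remodelling the extracellular matrix. PBRM1 is the bromodomain-rich subunit of PBAF, a form of the SWI/SNF complex that moves and evicts nucleosomes.

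Messenger RNA was counted at the 3′ end of transcripts with molecular identifiers. The 6 PBRM1 KO libraries held between 10042019 and 11250850 counts and 22917 to 23494 detected genes, and 5.45% to 6.87% of counts came from mitochondrially encoded transcripts. No difference between the groups was called in 4 library properties (exact two-sided permutation tests, p = 0.3 to 0.8, adjusted p = 0.6 to 0.8, with 0.1 the smallest p that 3 against 3 allows). Pbrm1 itself was counted at 245, 207 and 222 CPM (counts scaled to the library total) untreated and at 274, 233 and 222 CPM with TGFβ1 (log2 0.10 ± 0.10, adjusted p = 0.582); a 3′ count need not cover an edited exon, so it checks neither the edit nor the protein. All 10 epithelial markers were present, with a summed level of 2829 to 3023 CPM untreated and 2541 to 3124 CPM with TGFβ1. Of the 10, Krt19, Cdh1, Krt8 and Elf3 fell (40.0%, against 3.72% of all tested genes) and 0 rose; with the block 5 fell and 2 rose, and without both treated replicate 3 libraries 5 fell and 3 rose. Krt7, at means of 521 and 812 CPM, did not pass (adjusted p = 0.0720). Krt14, at means of 7.41 and 35.4 CPM, and Krt18, at 879 and 767 CPM, were not called either. Of the receptors that define the triple-negative class, Pgr had 1.5 counts in all 6 libraries together, while Erbb2 was counted at a mean of 37.2 CPM and Esr1 at 11.03 CPM untreated. Leukocyte markers summed to 17.2 to 22.2 CPM untreated and 25.9 to 30.9 CPM with TGFβ1, nearly all from Cd14 and Cd68, with 9 of 12 below 1 CPM, Ptprc at 3 counts in all and Ly6g at 0. Cd14, a receptor for bacterial lipopolysaccharide, rose from 9.33, 11.6 and 9.06 to 18.9, 18.2 and 16.3 CPM (log2 0.82 ± 0.14, adjusted p = 0.00306); the part of these markers in the results was not tested. Fibroblast markers summed to 29.9 to 41.0 CPM and 31.3 to 70.0 CPM, with 3 of 10 below 1 CPM, and all 8 endothelial markers were below 1 CPM, Erg at 0. In bulk libraries such as these, fewer cells of a type and less RNA per cell cannot be told apart.

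Treated replicate 3 stood apart from treated replicates 1 and 2. On the first principal component of the 6 libraries, which held 65.7% of the variance, untreated libraries lay between −31.8 and −27.2, treated replicates 1 and 2 at 44.2 and 42.2, and treated replicate 3 at 1.55. Where a count of calls moved by over 1.5 times, the count is also given from a fit with the replicate number as a block, written “with the block”, and from a fit without the treated replicate 3 libraries of both genotypes, written “without replicate 3”. Such pairs of counts are in the order higher, lower. The fit without replicate 3 was chosen after treated replicate 3 was seen to stand apart in these data. It keeps treated replicates 1 and 2 only, so its calls and p-values are descriptive.

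With TGFβ1, 1072 of 14012 tested genes (7.65%) were higher and 521 (3.72%) were lower in PBRM1 KO cells, or 11.4% in either direction (edgeR quasi-likelihood F test, Benjamini-Hochberg adjusted p below 0.05, n = 3 per group). An unadjusted p below 0.05 was reached by 3811 genes. The change was at least 2-fold for 444 of the higher and 139 of the lower genes, and at least 4-fold for 143 and 37, so rises were both more frequent and steeper. The median log2 fold change over all tested genes was −0.00. The CPM of the groups did not overlap for 1561 of the 1593 called genes, against 4183 (29.9%) of all tested genes. A lack of overlap was thus the rule among called genes, and below it only describes single genes. In the fit without replicate 3, 2277 (16%) were higher and 1707 (12%) lower of 14260 tested, and with the block 1682 (12%) and 1098 (7.84%) of 14012. Leaving out 1 PBRM1 KO library at a time gave 438 to 1726 higher and 175 to 1333 lower genes. Without treated replicate 1 these were 450 and 181, without treated replicate 2 438 and 175, and without treated replicate 3 1726 and 1333. Without untreated replicates 1, 2 and 3 they were 489 and 245, 551 and 261, and 575 and 302.

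Genes with a mean of at least 10 CPM were ranked by fold change, and secreted and cell-surface proteins were among the leading rises. Mmp9, a gelatinase that cleaves basement membrane collagen, was counted at 23.8, 18.8 and 17.4 CPM without TGFβ1 and at 1006, 983 and 278 CPM with it (log2 5.22 ± 0.55, adjusted p = 0.000115). All 3 treated libraries lay far above all untreated ones, and treated replicate 3 was the lowest of the 3. Mab21l4 went from 1.69, 0.910 and 0.740 to 55.0, 53.1 and 5.63 CPM (log2 5.04 ± 0.99, adjusted p = 0.00637). Hsd11b2, the enzyme that inactivates cortisol and corticosterone, went from 0.889, 1.46 and 1.20 to 51.9, 48.1 and 12.3 CPM (log2 4.95 ± 0.60, adjusted p = 0.000322). Smoc1, a secreted calcium-binding matrix protein, rose by log2 4.63 ± 0.72 and Ctla2a, which encodes a protein resembling a cathepsin propeptide, by 3.41 ± 0.40. Ctla2a had fractional counts in 11 of 12 libraries; its values include reads that also map to a near-identical relative and are uncertain. Il18rap, the accessory chain of the interleukin 18 receptor, went from 3.378, 3.18 and 2.96 to 46.9, 41.0 and 12.7 CPM (log2 3.37 ± 0.45, adjusted p = 0.000609). Clu, the secreted chaperone clusterin, reached 1073, 1030.0 and 352 CPM from 61.4, 82.9 and 58.6 CPM (log2 3.58 ± 0.44, adjusted p = 0.000336), and Ccn4, a matricellular protein first found as a Wnt target, 439, 361 and 124 CPM from 37.7, 43.1 and 22.2 CPM (log2 3.14 ± 0.55, adjusted p = 0.00303). Groups that did not overlap were a condition for choosing these genes, so their separation is not a result. In each, treated replicate 3 lay between the untreated libraries and the other 2 treated ones.

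Il1a and Mmp10 showed more of their rise in treated replicate 3. Il1a, the cytokine interleukin 1α, was counted at 4.80, 6.55 and 9.06 CPM without TGFβ1 and 92.4, 97.4 and 81.8 CPM with it (log2 3.72 ± 0.28, adjusted p = 1.42e-05). Mmp10, the metalloproteinase stromelysin 2, was counted at 3.56, 6.92 and 9.99 CPM without TGFβ1 and 64.6, 62.6 and 68.8 CPM with it (log2 3.25 ± 0.33, adjusted p = 9.91e-05). Here treated replicate 3 lay close to treated replicates 1 and 2, as the lowest of the 3 for Il1a and the highest for Mmp10.

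The promoters of these leading genes are shown because members of the AP-1 family, which binds the letters TGANTCA, are known partners of SMAD3. RefSeq promoters (build GRCm38.p6) were at hand for 7 of the 15 largest rises, and 4 held TGANTCA in the 250 bases before the start. In the same window it was present in 4.38% of 9134 tested genes and 7.84% of 778 higher genes with a promoter. Their 200 bases before the transcription start are printed 5′ to 3′ on the gene's strand, with the AP-1 match in capitals. The first base of the match lay 180 bases before the start in Mab21l4 (chr1:93160949-93161148, minus strand), 12 in Il1a (chr2:129309973-129310172, minus strand), 129 in Ctla2a (chr13:60936626-60936825, minus strand) and 63 in Mmp10 (chr9:7502142-7502341, plus strand).
Mab21l4: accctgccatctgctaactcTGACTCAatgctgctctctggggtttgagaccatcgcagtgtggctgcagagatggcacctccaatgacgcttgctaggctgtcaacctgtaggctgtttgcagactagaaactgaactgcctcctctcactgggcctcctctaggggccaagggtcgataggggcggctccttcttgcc
Il1a: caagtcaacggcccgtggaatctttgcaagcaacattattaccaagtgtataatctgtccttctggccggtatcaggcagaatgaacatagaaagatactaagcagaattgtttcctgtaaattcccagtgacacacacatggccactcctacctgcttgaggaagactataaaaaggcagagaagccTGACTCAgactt
Ctla2a: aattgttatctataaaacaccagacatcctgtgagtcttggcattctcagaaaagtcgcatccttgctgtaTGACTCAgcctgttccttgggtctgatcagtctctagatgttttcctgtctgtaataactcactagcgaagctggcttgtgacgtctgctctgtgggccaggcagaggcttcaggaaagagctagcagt
Mmp10: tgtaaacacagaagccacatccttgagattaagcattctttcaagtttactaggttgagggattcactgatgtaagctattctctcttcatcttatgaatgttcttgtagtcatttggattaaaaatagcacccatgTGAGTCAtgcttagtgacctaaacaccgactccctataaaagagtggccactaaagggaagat

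Over all called genes with a promoter in the table, read from 250 bases before to 50 after the start and on both strands, TGANTCA was present in 8.74% of 778 higher genes (Wilson 95% interval 6.95% to 10.9%), 6.19% of 388 lower genes (4.19% to 9.04%) and 5.01% of 9134 tested genes. CAGAC, the core of the SMAD-binding CAGA box, was present in 50.1%, 48.7% and 46.9%. GGAATG, the TEAD motif, was present in 14.1%, 11.1% and 11.8%, and CACCTG, the E-box bound by Snail and Zeb factors, in 19.7%, 20.4% and 16.7%. An AP-1 match shared bases with CAGAC in 19 of the 9134 promoters, that of Il1a among them, with GGAATG in 8 and with CACCTG in 10. A match is a run of letters and was not tested as a binding site, and the intervals cover counting error only.

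Dlk2, a transmembrane relative of the Notch ligands, had the largest fall among genes with at least 10 CPM. It was counted at 33.4, 31.6 and 41.9 CPM without TGFβ1 and 1.32, 1.89 and 6.26 CPM with it (log2 −3.48 ± 0.47, adjusted p = 0.000685). Padi1, which converts protein arginine to citrulline, went from 31.7, 32.8 and 42.1 to 3.49, 4.68 and 12.6 CPM (log2 −2.35 ± 0.36, adjusted p = 0.00153). Ptpn22, a tyrosine phosphatase best known from lymphocytes, went from 33.3, 34.4 and 52.5 to 3.40, 3.58 and 17.7 CPM (log2 −2.27 ± 0.66, adjusted p = 0.0433). Treated replicate 3 was the least reduced in all 3 genes, whose groups did not overlap by the rule of choice. Lgals3, galectin 3, a sugar-binding protein of the cell surface and cytoplasm, fell from 214, 250.3 and 265 to 48.8, 48.1 and 90.1 CPM (log2 −1.97 ± 0.24, adjusted p = 0.000336). Of the other large falls, Bdnf, a neurotrophin, was at log2 −1.74 ± 0.33, Fgfbp1, a carrier that releases fibroblast growth factors from matrix, at −2.12 ± 0.45, Eps8, an actin-capping protein, at −1.57 ± 0.40, Syne3, a linker of nucleus and cytoskeleton, at −1.97 ± 0.49 and Chchd10, a mitochondrial protein, at −1.72 ± 0.20.

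**Figure D1:**
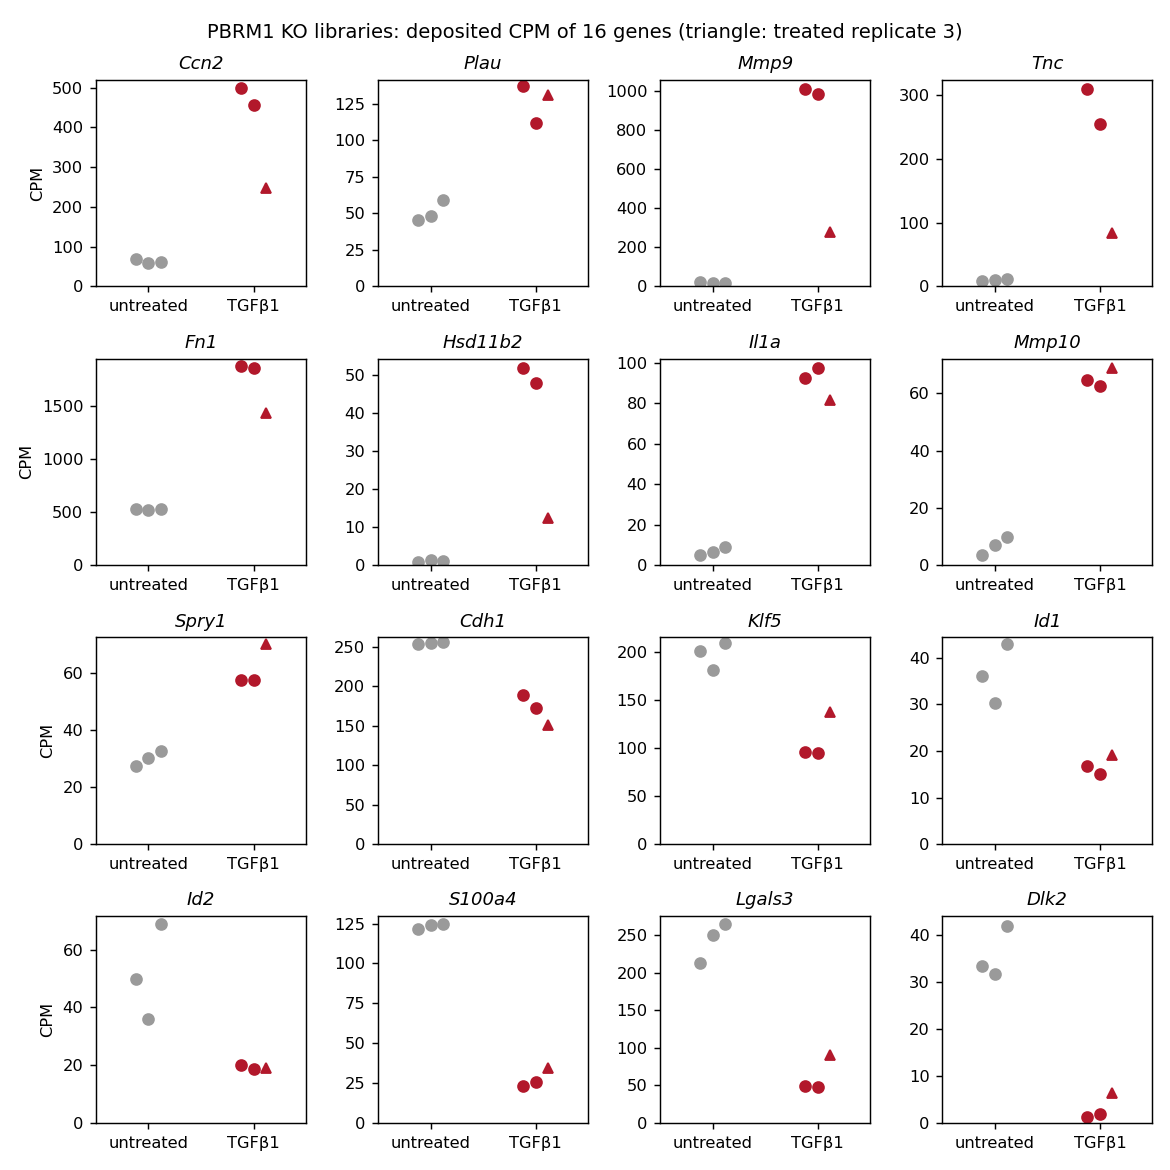
Deposited CPM of 16 genes in each PBRM1 KO library, untreated in grey and with TGFβ1 in red, on linear axes that start at 0, with treated replicate 3 as a triangle. In all 16 genes the groups do not overlap, which was a condition of choice for those among the largest rises and falls. The triangle lies between the groups for genes such as Mmp9 (278 CPM). It lies close to or beyond the other treated libraries for Il1a (81.8 CPM), Mmp10 (68.8 CPM), Spry1 (70.4 CPM) and Cdh1 (150.5 CPM).

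The ligands and receptors of the pathway itself changed in both directions. Of 18 tested TGFβ and activin ligands, receptors and SMADs 4 rose and 1 fell, or 7 and 1 without replicate 3 (median log2 0.30). Inhba, which encodes the activin A subunit, went from 76.4, 70.9 and 56.1 to 191, 191 and 92.2 CPM (log2 1.21 ± 0.28, adjusted p = 0.0161). Tgfb1 went from 15.6, 19.9 and 19.2 to 31.5, 28.8 and 25.2 CPM (log2 0.63 ± 0.12, adjusted p = 0.00643). Eng, the co-receptor endoglin, rose by log2 0.80 ± 0.17, and Fstl3, a secreted inhibitor of activin, by 1.39 ± 0.23. Tgfbr2, the receptor that binds the ligand, fell from 93.9, 100.1 and 119 to 53.7, 49.5 and 76.6 CPM (log2 −0.81 ± 0.21, adjusted p = 0.0276), so the ligand transcript was higher and that of its receptor lower in the same libraries.

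Most inhibitors that close the feedback loop were higher. Of 10 tested 6 rose and 0 fell, with a median of 0.52 against −0.00 for all tested genes. Pmepa1, a membrane protein that holds SMADs back from the receptor, went from 261, 227 and 219 to 770.1, 678 and 396 CPM (log2 1.37 ± 0.24, adjusted p = 0.00307). Smad7, the inhibitory SMAD, went from 39.8, 33.3 and 41.9 to 85.5, 82.3 and 49.6 CPM (log2 0.90 ± 0.22, adjusted p = 0.0204). Ldlrad4, a relative of Pmepa1, rose by log2 1.02 ± 0.21, and Tgif1, a SMAD co-repressor, by 0.40 ± 0.09. The groups did not overlap in these 4 genes, although treated replicate 3 came close to the highest untreated library for Smad7.

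Of 19 TGFβ-SMAD target genes 8 rose and 0 fell, or 13 and 0 without replicate 3 (median 0.77). The list medians of treated replicates 1, 2 and 3 were 1.10, 0.82 and 0.18, the third just above the highest untreated one (0.17). Ccn2, a matricellular growth factor, was counted at 69.7, 59.8 and 61.7 CPM without TGFβ1 and 498, 457 and 248 CPM with it (log2 2.64 ± 0.27, adjusted p = 9.91e-05), with fractional counts in 8 of 12 libraries. Junb, an AP-1 subunit and an early SMAD target, rose from 236, 271 and 214 to 770.0, 883 and 403 CPM (log2 1.498 ± 0.28, adjusted p = 0.00449). The groups did not overlap in either gene.

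The bone morphogenetic protein (BMP) branch, which signals through SMAD1 and SMAD5, had called genes in both directions. Of 13 tested genes 4 rose and 2 fell. Among those that rose were the receptors Acvr1 (log2 0.85 ± 0.18, adjusted p = 0.00997) and Bmpr2 (log2 0.86 ± 0.21, adjusted p = 0.0186), the SMAD of the branch, Smad1 (log2 0.53 ± 0.12, adjusted p = 0.0155), and Bmp1 (log2 0.99 ± 0.17, adjusted p = 0.00265), which despite its name is a procollagen protease. The genes that fell were Id1 and Id2, inhibitors of helix-loop-helix factors and standard BMP targets. Id1 went from 36.1, 30.2 and 43.0 to 16.7, 15.1 and 19.0 CPM (log2 −1.11 ± 0.16, adjusted p = 0.000955). Id2 went from 49.8, 35.9 and 69.1 to 20.1, 18.5 and 19.0 CPM (log2 −1.44 ± 0.19, adjusted p = 0.000609). All treated libraries lay below all untreated ones, and treated replicate 3 was as low as the other 2 for Id2. When each PBRM1 KO library was left out in turn, Id1, Id2 and Bmp1 kept their calls, while Acvr1, Bmpr2 and Smad1 did not.

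Among 15 transcription factors known for the epithelial-mesenchymal transition 4 rose and 0 fell, or 5 and 1 with the block (median 0.30). Snai1 went from 15.9, 23.5 and 19.3 to 41.4, 54.2 and 33.4 CPM (log2 1.12 ± 0.24, adjusted p = 0.00917). Zeb2 went from 29.2, 27.8 and 31.3 to 42.7, 37.7 and 41.7 CPM (log2 0.46 ± 0.09, adjusted p = 0.00809). Sox4 went from 586, 504 and 517 to 1003, 916 and 664 CPM (log2 0.67 ± 0.14, adjusted p = 0.00753). Runx1, a runt-domain factor, rose by 0.97 ± 0.22. Snai2, at 0.267, 0.364 and 0.277 CPM without TGFβ1 and 0.0944, 0.398 and 0.179 CPM with it, and Zeb1, at 0.978, 0.637 and 0.462 and 2.08, 0.946 and 0.894 CPM, were near the limit of detection and did not pass (adjusted p = 0.817 and 0.175). Of 14 factors that maintain epithelial identity 0 rose and 3 fell, or 0 and 5 with the block and 3 and 3 without replicate 3: Klf5 went from 202, 182 and 209.8 to 96.2, 94.6 and 138 CPM (log2 −0.86 ± 0.17, adjusted p = 0.00753), Ovol1 was at log2 −1.13 ± 0.26 and Elf3 at −0.47 ± 0.13.

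Junction genes moved in both directions. Cdh1, E-cadherin of the adherens junction, was counted at 254, 255 and 257 CPM without TGFβ1 and 189, 173 and 150.5 CPM with it (log2 −0.59 ± 0.12, adjusted p = 0.00738), and its lowest treated library was replicate 3. Ctnnb1, β-catenin, its intracellular partner, rose by log2 0.40 ± 0.09. Of 24 tight junction and polarity genes 4 rose and 5 fell: Cldn4, claudin 4, rose from 238, 291 and 229 to 641, 636 and 384 CPM (log2 1.12 ± 0.20, adjusted p = 0.00317; fractional counts in 10 of 12 libraries), and F11r, Lsr and Cldn23 rose too, while Crb3, a polarity protein, fell by 2.12 ± 0.28 on the log2 scale and Ocln, occludin, by 0.75 ± 0.15. Of 15 desmosome and hemidesmosome genes 1 rose and 4 fell, or 2 and 4 with the block and 6 and 3 without replicate 3. Perp, a desmosome protein, fell from 179, 191 and 191 to 83.3, 83.7 and 96.4 CPM (log2 −1.10 ± 0.09, adjusted p = 2.16e-05), and Ppl, periplakin, by 1.68 ± 0.31. Jup, plakoglobin, was at 173, 196 and 176 CPM without TGFβ1 and 541, 532 and 207 CPM with it (log2 1.215 ± 0.37, adjusted p = 0.0481), with treated replicate 3 just above the untreated libraries.

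Among 10 intermediate filament genes 0 rose and 2 fell, or 3 and 3 with the block and 5 and 4 without replicate 3. Those that fell were the keratins Krt19 (log2 −0.80 ± 0.15, adjusted p = 0.00522) and Krt8 (log2 −0.30 ± 0.07, adjusted p = 0.0177). Of the other keratins among the epithelial markers, Krt7 and Krt14 had higher means with TGFβ1 and Krt18 a lower one, none of them called with all libraries and no block. Without replicate 3 Krt14 was called higher, with a change of at least log2 1. Vim, vimentin, was at 1374, 1533 and 1680.4 CPM without TGFβ1 and 1249, 1158 and 1628 CPM with it (log2 −0.19 ± 0.14, adjusted p = 0.393). The groups overlapped through treated replicate 3, and without replicate 3 Vim was lower at log2 −0.37 (adjusted p = 0.00742). Epcam, an epithelial surface protein, was at 184, 198 and 178 and 254, 270.0 and 176 CPM (log2 0.30 ± 0.15, adjusted p = 0.216) and was higher without replicate 3 at log2 0.46 (adjusted p = 0.00155).

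Of the extracellular matrix genes many were higher, against 7.65% of all tested genes. Of 20 fibronectin and matricellular genes 11 rose and 0 fell, with a median of 0.82. Tnc, tenascin C, an anti-adhesive matrix protein, went from 9.15, 9.46 and 12.2 to 309.5, 255 and 84.1 CPM (log2 4.38 ± 0.50, adjusted p = 0.000209). Fn1, fibronectin, went from 528, 520.0 and 531 to 1877, 1854 and 1432 CPM (log2 1.70 ± 0.13, adjusted p = 1.42e-05), with fractional counts in 10 of 12 libraries. Spp1, osteopontin, went from 95.5, 157 and 194 to 561, 701 and 599.9 CPM (log2 2.05 ± 0.24, adjusted p = 0.000230). Fbln2, fibulin 2, went from 273, 259 and 242 to 636, 572 and 476 CPM (log2 1.11 ± 0.12, adjusted p = 0.000109). The groups were apart in all 4, and in Spp1 treated replicate 3 lay between treated replicates 1 and 2. Smoc1 and Ccn4, described above, and Sparc, Postn, Thbs1, Fbn1 and Matn2 were the others that rose.

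Of 26 collagens and laminins 6 rose and 2 fell, or 11 and 2 with the block and 13 and 2 without replicate 3 (median 0.30). The list medians of the 3 treated libraries were 0.43, 0.44 and 0.04, the third within the untreated range of −0.04 to 0.05. Col27a1, a fibrillar collagen of cartilage, went from 4.80, 3.91 and 3.24 to 90.4, 85.8 and 12.7 CPM (log2 3.95 ± 0.74, adjusted p = 0.00515). Col7a1, the collagen of anchoring fibrils, rose by log2 1.53 ± 0.25. Lamb3 and Lama3, chains of the laminin under epithelia, rose by 1.90 ± 0.36 and 1.41 ± 0.38. Lamb1, of other laminins, rose by 0.76 ± 0.09, while Lama5 fell by 0.50 ± 0.10. Col4a5, of basement membrane collagen IV, fell by 1.37 ± 0.20. Among 20 enzymes that modify collagen 8 rose and 1 fell, or 8 and 3 with the block and 9 and 2 without replicate 3. Plod2, a lysyl hydroxylase, went from 37.1, 29.8 and 32.4 to 99.1, 79.5 and 43.9 CPM (log2 1.15 ± 0.25, adjusted p = 0.0117). Serpinh1, the collagen chaperone HSP47, went from 719, 775 and 615 to 1159, 1029 and 857 CPM (log2 0.52 ± 0.12, adjusted p = 0.0182). The lysyl oxidases Loxl2 and Loxl3 rose from low levels, Loxl2 with 7 untreated counts in all, and Pcolce, an enhancer of procollagen cleavage, fell by 0.63 ± 0.14.

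Hyaluronan and sulfated proteoglycans form the gel between the fibres, and the list held proteoglycan cores, enzymes of their sugar chains, and enzymes and receptors of hyaluronan. Of 23 tested 9 rose and 0 fell, or 12 and 5 with the block and 10 and 3 without replicate 3 (median 0.38). Has2, a hyaluronan synthase, went from 37.4, 32.7 and 35.4 to 181, 204 and 98.7 CPM (log2 2.18 ± 0.27, adjusted p = 0.000396). Ext1, which polymerises heparan sulfate, went from 86.4, 87.7 and 88.0 to 215, 206 and 135 CPM (log2 1.07 ± 0.18, adjusted p = 0.00260). Chsy1, which polymerises chondroitin, rose by 0.93 ± 0.15 and Chst11, a chondroitin sulfotransferase, by 1.70 ± 0.24.

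Of 13 metalloproteinases and TIMPs 6 rose and 0 fell. Besides Mmp9 and Mmp10, the collagenase Mmp13 went from 0.444, 0.637 and 1.11 to 14.7, 11.5 and 7.51 CPM (log2 3.91 ± 0.37, adjusted p = 4.44e-05). The elastase Mmp12 went from 0.267, 0.273 and 0.0925 to 7.36, 5.38 and 0.715 CPM (log2 4.30 ± 0.98, adjusted p = 0.0140), from 7 untreated counts, so that its fold depends on the fit's prior count. Of 14 ADAM and ADAMTS proteases 5 rose and 2 fell. Adamts4, an aggrecanase, went from 2.40, 4.09 and 2.96 to 87.8, 70.3 and 14.6 CPM (log2 4.16 ± 0.69, adjusted p = 0.00240). Adam12, a metalloprotease of mesenchymal cells, went from 21.0, 19.2 and 15.8 to 68.6, 61.4 and 39.5 CPM (log2 1.58 ± 0.22, adjusted p = 0.000758). Adam8 fell from 22.1, 26.8 and 24.5 to 7.93, 7.67 and 10.5 CPM (log2 −1.49 ± 0.19, adjusted p = 0.000367) and Adamts1 by 1.28 ± 0.25.

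A protease of the plasminogen system rose. Plau, the urokinase that activates plasminogen, went from 45.7, 47.9 and 59.4 to 137, 112 and 131 CPM (log2 1.30 ± 0.11, adjusted p = 2.71e-05). Treated replicate 3 was as high as the other 2. Of 18 plasminogen activators, serpins and cathepsins 3 rose and 2 fell, or 6 and 2 with the block and 5 and 3 without replicate 3. Klk10, a kallikrein-related protease, fell from 10.1, 10.6 and 17.6 to 0.472, 0.299 and 1.79 CPM (log2 −3.86 ± 0.45, adjusted p = 0.000263).

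The matrix receptors changed subunit by subunit. Of 13 integrin genes 7 rose and 1 fell, or 8 and 2 with the block and 9 and 2 without replicate 3 (median 0.58). Itgb3, integrin β3, which pairs with αV to bind fibronectin and osteopontin, went from 1.87, 1.64 and 1.85 to 62.1, 42.9 and 13.8 CPM (log2 4.44 ± 0.63, adjusted p = 0.000913). Itgb5 went from 145, 153 and 130.3 to 454, 405 and 237 CPM (log2 1.34 ± 0.25, adjusted p = 0.00529). Itga2, the collagen-binding α2, went from 50.7, 47.0 and 58.3 to 154, 136 and 93.9 CPM (log2 1.28 ± 0.16, adjusted p = 0.000464). Itga6, the laminin-binding α6 of hemidesmosomes, fell from 199.5, 153 and 206 to 72.6, 58.1 and 89.8 CPM (log2 −1.35 ± 0.19, adjusted p = 0.000745). The groups were apart in all 4 genes.

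Of 31 genes for actin, its partners and contractility 9 rose and 1 fell, or 16 and 1 without replicate 3. Rhob, a small GTPase of endosomes and stress fibres, went from 139.9, 153 and 144 to 550.3, 568 and 214 CPM (log2 1.59 ± 0.34, adjusted p = 0.0108), and Pdlim7, Zyx and Vasp, proteins of actin bundles and focal adhesions, rose by log2 0.62 ± 0.11, 0.41 ± 0.09 and 0.39 ± 0.08. Myh14, a non-muscle myosin heavy chain, fell from 21.95, 17.1 and 13.04 to 4.81, 5.78 and 2.68 CPM (log2 −1.99 ± 0.35, adjusted p = 0.00351). Of 7 caveola genes, which shape small pits of the cell membrane, 0 rose and 3 fell. Cav1, caveolin 1, went from 24.9, 27.3 and 21.1 to 5.38, 7.17 and 8.94 CPM (log2 −1.77 ± 0.19, adjusted p = 0.000113). Cavin2 went from 74.3, 52.96 and 50.9 to 20.6, 13.9 and 18.4 CPM (log2 −1.76 ± 0.17, adjusted p = 7.68e-05), and Cav2 fell by 0.96 ± 0.17.

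The calcium-binding S100 proteins had the largest share of falls (40.0%) in the plot of list shares. That plot leaves out marker lists and lists with fewer than 10 tested genes. The epithelial marker list had the same share, and the smaller lists of caveolae (42.9%) and TAM receptors and ligands (50%) had larger ones. Of 10 tested 0 rose and 4 fell (median −0.52). S100a4, a binding partner of myosin, went from 121, 124 and 125 to 23.3, 25.7 and 34.2 CPM (log2 −2.16 ± 0.15, adjusted p = 1.39e-05). S100a6 went from 7501, 8422 and 8728 to 4576, 5184 and 6624 CPM (log2 −0.60 ± 0.15, adjusted p = 0.0213). S100a10 went from 1688, 1656 and 1644 to 1236, 1213 and 1238 CPM (log2 −0.45 ± 0.06, adjusted p = 0.000657); S100a3 fell by 1.86 ± 0.26. The annexins, which bind membranes and pair with S100 proteins, were split. Of 10 tested 2 rose and 2 fell. Anxa1 went from 542, 588 and 522 to 351, 346 and 373 CPM (log2 −0.64 ± 0.09, adjusted p = 0.000731) and Anxa11 fell by 0.55 ± 0.17, while Anxa8 and Anxa5 rose by 1.73 ± 0.48 and 0.53 ± 0.09.

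**Figure D2:**
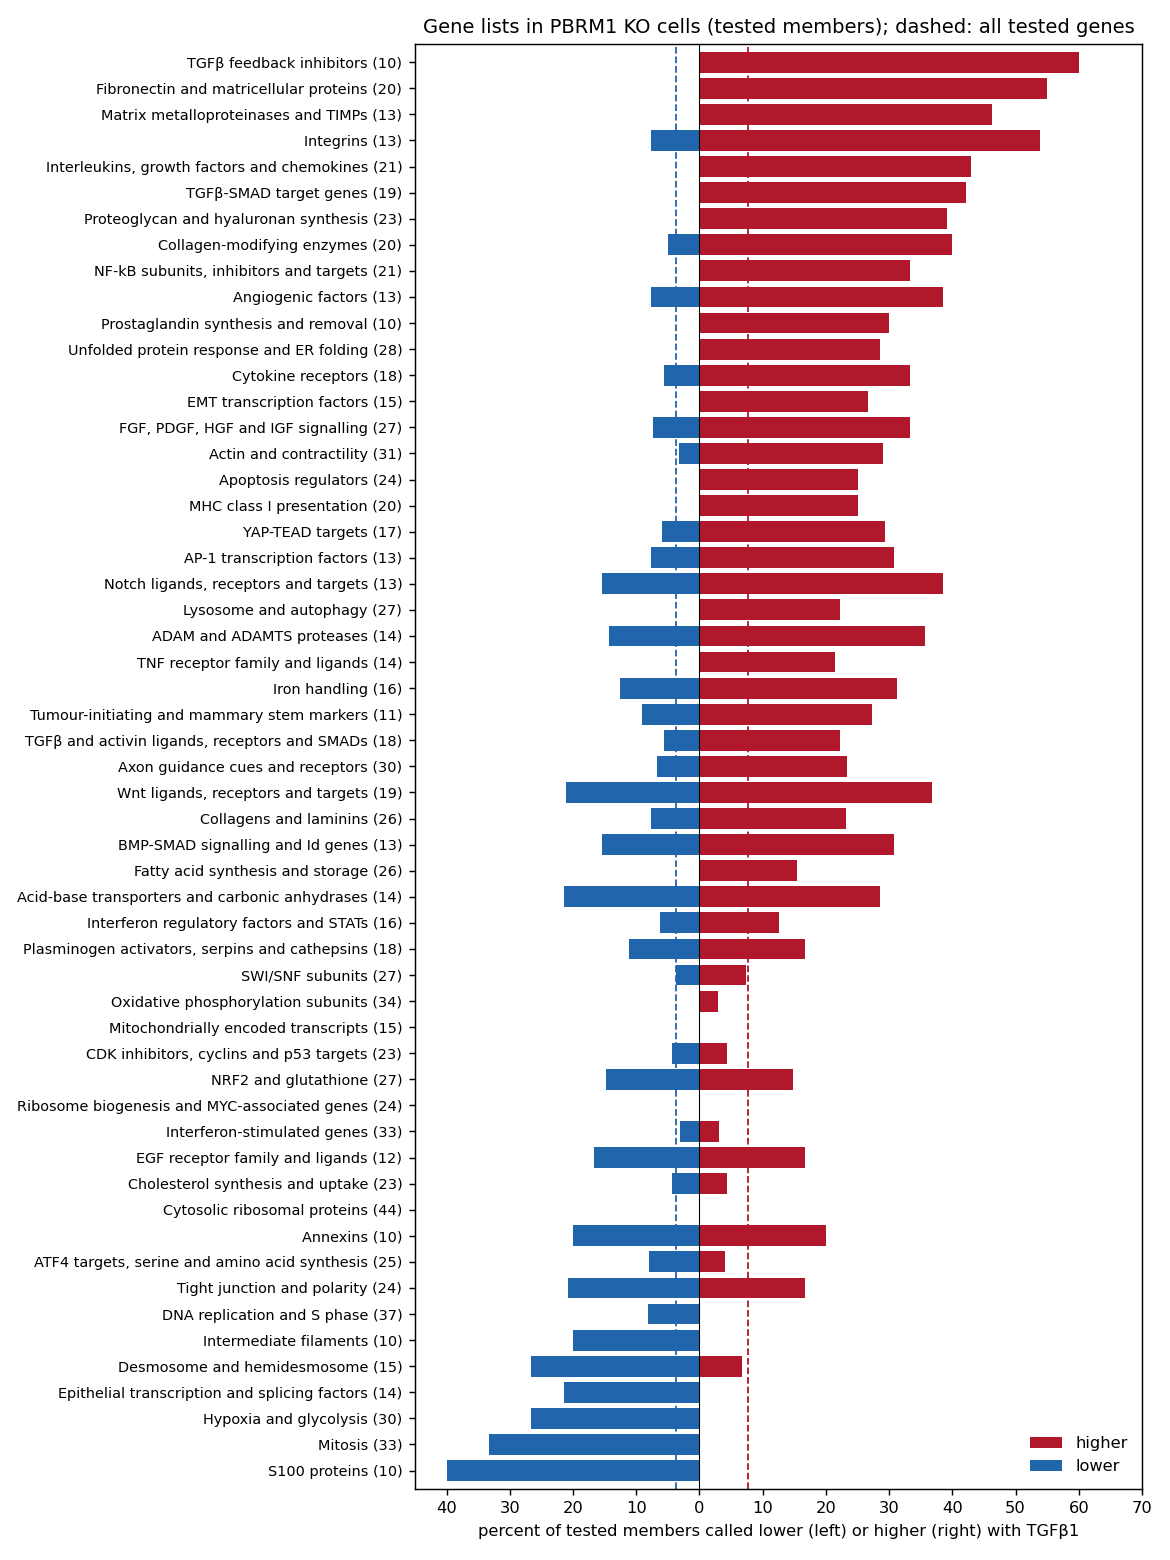
Percent of tested members called higher (red, to the right) or lower (blue, to the left) with TGFβ1 in PBRM1 KO cells for each list with at least 10 tested genes other than cell type markers, with the number tested in brackets. Dashed lines mark all tested genes, 7.65% higher and 3.72% lower; TGFβ feedback inhibitors (60.0% higher) and S100 proteins (40.0% lower) are at the ends.

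Several secreted signals of inflammation were higher. Of 21 interleukins, growth factors and chemokines 9 rose and 0 fell, or 10 and 1 with the block and 10 and 4 without replicate 3 (median 0.33). After Il1a, Il23a, a subunit of interleukin 23, went from 25.6, 32.7 and 27.4 to 59.0, 61.2 and 39.1 CPM (log2 0.88 ± 0.18, adjusted p = 0.00744). The chemokine Cxcl16 went from 41.2, 41.9 and 41.3 to 90.1, 85.9 and 55.4 CPM (log2 0.88 ± 0.17, adjusted p = 0.00598). Ccl20, which attracts CCR6-bearing lymphocytes, went from 0.444, 1.36 and 0.832 to 3.49, 4.28 and 3.57 CPM (log2 2.08 ± 0.33, adjusted p = 0.00204). The list median was 0.36, 0.37 and 0.43 in treated replicates 1, 2 and 3, the third being the highest. Among the others that rose were Csf3, which drives neutrophil production, Il11, a known TGFβ target, Il1b, Il34 and Cx3cl1.

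Of 18 cytokine receptors 6 rose and 1 fell, or 10 and 1 without replicate 3, with medians of 0.59, 0.53 and 0.08 in the 3 treated libraries. Il1rl1, the receptor for interleukin 33, went from 1.07, 0.637 and 0.647 to 9.34, 6.67 and 2.95 CPM (log2 2.97 ± 0.52, adjusted p = 0.00332). Il4ra went from 9.47, 10.0 and 7.54 to 23.97, 22.3 and 12.6 CPM (log2 1.11 ± 0.25, adjusted p = 0.0131). Ackr3, a scavenging receptor for CXCL12, went from 69.6, 75.4 and 84.9 to 123, 125 and 124 CPM (log2 0.68 ± 0.09, adjusted p = 0.000543), with the 3 treated libraries nearly level, and Il17ra rose by 0.66 ± 0.14. Il6ra fell by 0.78 ± 0.19.

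Of 21 NF-κB subunits, inhibitors and targets 7 rose and 0 fell, or 8 and 1 with the block and 9 and 2 without replicate 3. Nfkbiz, a nuclear co-activator of the pathway, went from 12.5, 20.3 and 16.7 to 43.3, 40.4 and 29.8 CPM (log2 1.18 ± 0.16, adjusted p = 0.000716). Tnip1, an inhibitor of it, went from 32.9, 26.2 and 25.8 to 58.1, 55.4 and 42.1 CPM (log2 0.86 ± 0.15, adjusted p = 0.00381). Ptgs2, cyclooxygenase 2, went from 125, 152 and 191 to 252, 308 and 232 CPM (log2 0.75 ± 0.18, adjusted p = 0.0166). The prostaglandin transporter Slco2a1 went from 45.1, 48.6 and 59.5 to 161, 151 and 70.0 CPM (log2 1.30 ± 0.28, adjusted p = 0.0112). Of 10 genes of prostaglandin synthesis and removal 3 rose and 0 fell, or 4 and 1 without replicate 3. Of 14 TNF receptor family genes 3 rose and 0 fell, or 5 and 0 without replicate 3. The receptors Relt, Tnfrsf9 and Cd40 rose, and Cd40, which receives signals from T cells, went from 0.444, 0.546 and 0.370 to 27.2, 23.4 and 4.38 CPM (log2 5.27 ± 0.80, adjusted p = 0.00144). Among 5 tested complement genes 3 rose and 0 fell. Besides Clu, the protease Masp1 rose by 1.223 ± 0.20, and C3, the central component, went from 2.13, 3.64 and 2.40 to 10.3, 7.87 and 3.93 CPM (log2 1.41 ± 0.34, adjusted p = 0.0194).

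Interferon-stimulated genes differed between the treated replicates. Of 33 tested 1 rose and 1 fell, or 16 and 1 with the block and 22 and 1 without replicate 3. The list median was 0.57. The medians of the 3 treated libraries were 0.58, 0.86 and −0.00. Those of the 3 untreated libraries were 0.08, 0.19 and −0.27. The third treated library thus lay within the untreated range, while each treated median was above that of the untreated library of the same number. Parp12, an antiviral ADP-ribosyltransferase, rose from 21.9, 26.5 and 24.6 to 37.3, 43.2 and 28.5 CPM (log2 0.57 ± 0.17, adjusted p = 0.0448). Ifit2 fell from 7.47, 6.64 and 6.01 to 3.11, 3.78 and 4.56 CPM (log2 −0.82 ± 0.18, adjusted p = 0.0106).

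Of 16 interferon regulatory factors and STAT pathway genes 2 rose and 1 fell, or 5 and 1 with the block and 8 and 1 without replicate 3. Irf8, a factor of myeloid cells, went from 4.53, 4.37 and 6.19 to 10.7, 10.3 and 11.2 CPM (log2 1.08 ± 0.19, adjusted p = 0.00295). Of the leukocyte markers Cd14 rose as given above, and Fcer1g and Csf1r, too low to be tested, went from means of 0.0308 and 0.0910 to 1.04 and 0.573 CPM; their part in the level of Irf8 was not tested. The cytokine-signalling suppressors moved apart, Socs3 rising by 0.89 ± 0.12 and Socs1 falling by 1.36 ± 0.33. Of 20 genes of MHC class I presentation, which shows peptides to cytotoxic T cells, 5 rose and 0 fell, or 9 and 0 with the block and 11 and 0 without replicate 3 (median 0.35). The list medians of treated replicates 1, 2 and 3 were 0.35, 0.58 and 0.11, the third within the untreated range of −0.16 to 0.16. Psmb10 and Psme1, proteasome parts that shape peptides, rose by 0.82 ± 0.19 and 0.73 ± 0.16, Erap1, which trims them, by 0.75 ± 0.16, and Tapbp, tapasin, by 0.76 ± 0.21 (fractional counts in 10 of 12 libraries). Among 7 tested checkpoint ligands 2 rose and 0 fell, or 4 and 0 with the block. Nt5e, the ecto-nucleotidase CD73, went from 57.4, 68.7 and 69.3 to 147, 142 and 101 CPM (log2 0.98 ± 0.14, adjusted p = 0.000836), and Cd24a rose by 0.42 ± 0.12.

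Notch ligands and receptors changed in both directions. Of 13 genes 5 rose and 2 fell. The ligand Jag1 went from 31.0, 30.9 and 25.1 to 239, 223 and 91.7 CPM (log2 2.65 ± 0.37, adjusted p = 0.000763). The target Hes1 went from 109, 97.9 and 89.2 to 242, 199.6 and 149 CPM (log2 0.98 ± 0.21, adjusted p = 0.0106). Notch2 rose from 76.0, 70.9 and 80.1 to 125, 131 and 94.9 CPM (log2 0.61 ± 0.13, adjusted p = 0.00975), while Notch1 fell from 38.6, 38.0 and 43.3 to 25.5, 19.3 and 21.4 CPM (log2 −0.87 ± 0.15, adjusted p = 0.00269) and the ligand Dll1 by 1.38 ± 0.26. Notch4 rose from 7 untreated counts.

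Among 19 Wnt genes 7 rose and 4 fell. The ligand Wnt9a went from 4.62, 6.64 and 4.25 to 34.7, 32.8 and 7.06 CPM (log2 2.24 ± 0.56, adjusted p = 0.0210), and Wnt11, Lef1 and the receptor Fzd5 also rose, Wnt11 from 7 untreated counts. The secreted inhibitor Sfrp1 fell by 0.71 ± 0.14, the receptors Fzd7 and Fzd1 by 0.51 ± 0.12 and 1.08 ± 0.27, and the receptor kinase Ror1 by 1.32 ± 0.29. Receptors thus appeared on both sides.

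Of 27 genes of FGF, PDGF, HGF and IGF signalling 9 rose and 2 fell. Igfbp7, a secreted insulin-like growth factor binding protein, went from 72.9, 92.2 and 73.5 to 526, 598 and 398 CPM (log2 2.66 ± 0.17, adjusted p = 1.1e-05), with each treated library at over 4-fold the highest untreated one. Pdgfc, a ligand, went from 16.4, 20.9 and 14.6 to 78.1, 74.8 and 37.4 CPM (log2 1.86 ± 0.32, adjusted p = 0.00271). Spry1, an inhibitor of receptor tyrosine kinases, went from 27.4, 30.1 and 32.6 to 57.8, 57.6 and 70.4 CPM (log2 1.03 ± 0.11, adjusted p = 0.000134). Pdgfrb, a receptor and fibroblast marker, rose from 5 untreated counts to 8.40, 6.17 and 1.34 CPM. Met, the receptor for hepatocyte growth factor, fell from 52.1, 51.8 and 49.2 to 28.7, 25.8 and 32.6 CPM (log2 −0.82 ± 0.14, adjusted p = 0.00260). Of 12 EGF receptor family genes 2 rose and 2 fell, or 3 and 4 without replicate 3: the ligand Hbegf rose by 0.90 ± 0.16 and Egfr from 1.07, 1.36 and 0.832 to 5.47, 4.08 and 1.43 CPM (log2 1.71 ± 0.51, adjusted p = 0.0453), while Erbb3 fell by 0.75 ± 0.17 and the ligand Nrg2 fell by 2.33 ± 0.39. Of the TAM receptors, which clear dying cells, 2 genes were tested and Axl fell from 193, 196 and 233 to 119, 119 and 175 CPM (log2 −0.60 ± 0.17, adjusted p = 0.0350).

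Of 13 angiogenic factors 5 rose and 1 fell, or 6 and 2 with the block and 6 and 2 without replicate 3 (median 0.41), with medians of 0.53, 0.69 and 0.57 in the 3 treated libraries. Vegfa went from 15.5, 17.2 and 13.2 to 137, 132 and 39.9 CPM (log2 2.73 ± 0.47, adjusted p = 0.00269). Vegfc, the lymphatic growth factor, went from 7.47, 7.37 and 6.93 to 36.8, 40.9 and 20.8 CPM (log2 2.16 ± 0.27, adjusted p = 0.000371). Apln, the vascular peptide apelin, went from 34.4, 33.1 and 34.6 to 84.1, 75.9 and 77.4 CPM (log2 1.20 ± 0.13, adjusted p = 0.000109) with treated replicate 3 level with the others, and Pgf rose by 1.03 ± 0.26. The co-receptor Nrp1 fell by 0.61 ± 0.15. Among 30 axon guidance genes 7 rose and 2 fell, or 11 and 4 with the block and 13 and 4 without replicate 3. Unc5b, a netrin receptor, went from 98.7, 94.2 and 86.2 to 400.3, 375 and 218 CPM (log2 1.82 ± 0.22, adjusted p = 0.000329). The ephrin Efnb1 went from 40.0, 36.8 and 37.1 to 123, 113 and 72.1 CPM (log2 1.42 ± 0.18, adjusted p = 0.000336). Sema7a and Sema4c, semaphorins, rose by 1.38 ± 0.23 and 1.15 ± 0.18, while Epha4, an ephrin receptor, fell by 1.06 ± 0.22 and Efnb2 by 0.41 ± 0.12.

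Of 13 AP-1 factors 4 rose and 1 fell, or 4 and 4 with the block and 5 and 2 without replicate 3. Besides Junb, Fos rose by log2 1.37 ± 0.40, although its groups overlapped between 2.84, 3.55 and 2.13 CPM without TGFβ1 and 8.78, 10.4 and 3.31 CPM with it, and the small Maf factors Mafg and Maff rose by 0.39 ± 0.10 and 0.41 ± 0.12. Jund fell by 0.29 ± 0.09. Of 17 YAP-TEAD targets 5 rose and 1 fell, or 7 and 2 with the block and 8 and 2 without replicate 3. Amotl2, which restrains YAP, went from 65.1, 64.1 and 64.4 to 140.4, 143 and 91.2 CPM (log2 0.94 ± 0.17, adjusted p = 0.00367). Ankrd1, a muscle-related target of YAP, went from 138, 155 and 146 to 208, 207 and 209.7 CPM (log2 0.50 ± 0.12, adjusted p = 0.0182).

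Among cell division genes no rise was called, and the lists of mitosis and of S phase differed in the third treated library. Of 33 mitosis genes 0 rose and 11 fell, or 0 and 20 with the block and 0 and 22 without replicate 3 (median −0.35). The medians of the 3 treated libraries were −0.40, −0.39 and −0.25. Anln, anillin of the cleavage furrow, went from 173, 162 and 170.4 to 95.7, 101 and 135 CPM (log2 −0.62 ± 0.13, adjusted p = 0.00997). Kif23, a motor of the midbody, went from 169.6, 145 and 148 to 107, 102 and 119.7 CPM (log2 −0.50 ± 0.11, adjusted p = 0.0119). Of 37 replication and S phase genes 0 rose and 3 fell, or 0 and 14 with the block and 0 and 32 without replicate 3 (median −0.29). Their medians were −0.42, −0.43 and −0.02 in the 3 treated libraries, so treated replicate 3 lay with the untreated libraries. The genes that fell were Lig1 (−0.41 ± 0.12), Slbp (−0.46 ± 0.12) and Mcm5 (−0.40 ± 0.11), a ligase, a histone mRNA binder and a helicase part.

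Cdkn1a, the cyclin-dependent kinase inhibitor p21, was counted at 8.29, 11.6 and 13.8 CPM without TGFβ1 and 31.7, 31.7 and 15.996 CPM with it (log2 1.2197 ± 0.25, adjusted p = 0.00802), with treated replicate 3 just above the highest untreated library. Cdkn2c, the inhibitor p18, fell by 0.56 ± 0.13. Of 23 CDK inhibitors, cyclins and p53 targets 1 rose and 1 fell, or 5 and 3 with the block and 9 and 3 without replicate 3. Of 24 ribosome biogenesis genes 0 rose and 0 fell, or 0 and 3 with the block and 0 and 17 without replicate 3 (median −0.29). Their edgeR count of 0 stands beside 5 lower genes at an unadjusted p below 0.05 and 0 with DESeq2 and with limma-voom. Dkc1, which modifies ribosomal RNA, was at log2 −0.45 ± 0.18 (adjusted p = 0.133). Their medians in the 3 treated libraries were −0.38, −0.42 and −0.02. Of 44 cytosolic ribosomal protein genes 0 rose and 0 fell, or 0 and 2 with the block and 0 and 5 without replicate 3; 3 were lower at an unadjusted p below 0.05, and DESeq2 and limma-voom called 0. Of 15 mitochondrially encoded transcripts 0 rose and 0 fell, or 0 and 2 with the block and 0 and 2 without replicate 3; 2 were lower at an unadjusted p below 0.05, and DESeq2 called 1 and limma-voom 0. Of 34 nuclear oxidative phosphorylation genes 1 rose and 0 fell, or 1 and 4 with the block and 1 and 6 without replicate 3.

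Of 30 hypoxia and glycolysis genes 0 rose and 8 fell, or 3 and 14 with the block and 3 and 13 without replicate 3 (median −0.26). Medians were −0.24, −0.27 and −0.20 in the 3 treated libraries, so the third was close to the other 2. Car9, a carbonic anhydrase of the cell surface and a standard hypoxia marker, went from 17.8, 20.8 and 16.6 to 10.9, 12.2 and 9.47 CPM (log2 −0.77 ± 0.17, adjusted p = 0.0126). Pgk1 went from 222, 222 and 189.9 to 145, 146 and 168 CPM (log2 −0.48 ± 0.09, adjusted p = 0.00620; fractional counts in 12 of 12 libraries). Among 14 acid-base transporters and carbonic anhydrases 4 rose and 3 fell, or 7 and 5 without replicate 3. The Slc4 family transporters Slc4a11, Slc4a4 and Slc4a7 rose by 1.61 ± 0.35, 0.98 ± 0.20 and 0.62 ± 0.15. Car13, a cytosolic carbonic anhydrase, fell from 21.5, 25.1 and 21.6 to 5.95, 7.77 and 7.86 CPM (log2 −1.67 ± 0.14, adjusted p = 2.16e-05).

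Of 26 genes of fatty acid synthesis and storage 4 rose and 0 fell, or 4 and 2 with the block and 4 and 3 without replicate 3. Plin2, the coat of lipid droplets, went from 60.2, 64.8 and 63.2 to 188, 183 and 123 CPM (log2 1.38 ± 0.15, adjusted p = 0.000160), and the desaturase-family genes Fads3 and Fads1 rose by 0.81 ± 0.12 and 0.51 ± 0.13. Of 23 genes of cholesterol synthesis and uptake 1 rose and 1 fell, or 2 and 6 with the block and 2 and 3 without replicate 3. The medians of the 3 untreated libraries ran from −0.28 to 0.13 and those of the treated ones were −0.12, −0.17 and −0.18, so the groups overlapped.

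Of 28 unfolded protein response and folding genes 8 rose and 0 fell, or 14 and 0 with the block and 14 and 1 without replicate 3. Xbp1, a driver of secretory capacity, went from 84.3, 99.1 and 93.8 to 187, 188 and 128 CPM (log2 0.84 ± 0.15, adjusted p = 0.00412). Pdia6, a disulfide isomerase, went from 375, 388 and 392 to 583, 553 and 497 CPM (log2 0.49 ± 0.07, adjusted p = 0.00147). Manf, a folding factor, went from 298, 319.8 and 327 to 421, 414 and 409.9 CPM (log2 0.39 ± 0.07, adjusted p = 0.00575). Of 27 lysosome and autophagy genes 6 rose and 0 fell, or 12 and 0 with the block and 14 and 0 without replicate 3, among them Wipi1, an autophagosome protein, by 0.77 ± 0.15, and the lysosomal cholesterol exporters Npc1 and Npc2 by 0.55 ± 0.13 and 0.42 ± 0.12. Of 25 ATF4 and amino acid genes 1 rose and 2 fell, or 2 and 2 with the block and 2 and 6 without replicate 3. The rise was of the stress protein gene Nupr1 (log2 1.49 ± 0.38, adjusted p = 0.0241), and the falls were of Phgdh of serine synthesis (−0.50 ± 0.13, with fractional counts in 12 of 12 libraries) and the arginine transporter Slc7a1 (−0.53 ± 0.16).

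Of 16 iron handling genes 5 rose and 2 fell, or 5 and 4 without replicate 3. The ferritin chains moved apart: Fth1, the heavy chain, fell from 2740.0, 3009.8 and 3536 to 1558, 1829 and 2525 CPM (log2 −0.66 ± 0.19, adjusted p = 0.0416). Ftl1, the light chain, rose from 934, 1023 and 911 to 1521, 1564 and 1248 CPM (log2 0.58 ± 0.10, adjusted p = 0.00350; fractional counts in 11 of 12 libraries). Tfrc, the transferrin receptor, fell by 0.77 ± 0.17, while Slc39a14, an importer of zinc and iron, rose by 0.67 ± 0.11. Lcn2, a carrier of iron siderophores, went from 0.711, 1.09 and 1.39 to 4.34, 3.68 and 5.18 CPM (log2 2.04 ± 0.49, adjusted p = 0.0182). Of 27 NRF2 and glutathione genes 4 rose and 4 fell, or 4 and 7 with the block and 4 and 8 without replicate 3. Osgin1, an oxidative stress gene, rose by 0.71 ± 0.11 and G6pdx, the entry enzyme of the pentose phosphate pathway, fell by 0.33 ± 0.10.

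Among 24 apoptosis regulators 6 rose and 0 fell, or 7 and 1 with the block and 8 and 2 without replicate 3. The initiator caspase Casp8 rose by 0.57 ± 0.11 and the executioner Casp6 by 0.51 ± 0.14. The inhibitor of apoptosis Birc3 rose by 0.87 ± 0.19 and Gsdmd, the pore-forming gasdermin D, was also higher, so inducers and an inhibitor rose in the same libraries. Among 11 markers of mammary stem and tumour-initiating cells 3 rose and 1 fell, or 5 and 1 without replicate 3. Of 27 SWI/SNF subunits 2 rose (7.41%) and 1 fell (3.7%), near the 7.65% and 3.72% of all tested genes. With the block 4 rose and 1 fell, where 12% and 7.84% of all tested genes did. Without replicate 3 these were 7 and 1, beside 16% and 12% of all tested genes. Bcl11a and Bcl7a rose by 0.72 ± 0.19 and 0.43 ± 0.12, and Dpf1, a neuronal subunit, fell by 1.02 ± 0.30. Among the galectins Lgals3bp, a secreted galectin 3 partner, rose by 1.216 ± 0.24 as Lgals3 fell.

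The weight of treated replicate 3 differed between genes. For each of 1020 genes that were called without replicate 3 and changed by at least log2 1 in that fit, the deviation of treated replicate 3 from the untreated mean was divided by the mean deviation of treated replicates 1 and 2. The median share was 0.432, with quartiles of 0.2398 and 0.624. A share of at least 0.8 was found for 116 genes, a share of at most 0.2 for 207, and 77 of those had the opposite sign. Since the genes were chosen on the other treated replicates, these shares describe the libraries and were given no test. Plau had a share of 1.09, Mmp10 1.04, Apln 0.989, Il1a 0.952, Spp1 0.985 and Fn1 0.806. Mmp9 had 0.678, Mab21l4 0.412 and Jup 0.132.

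**Figure D3:**
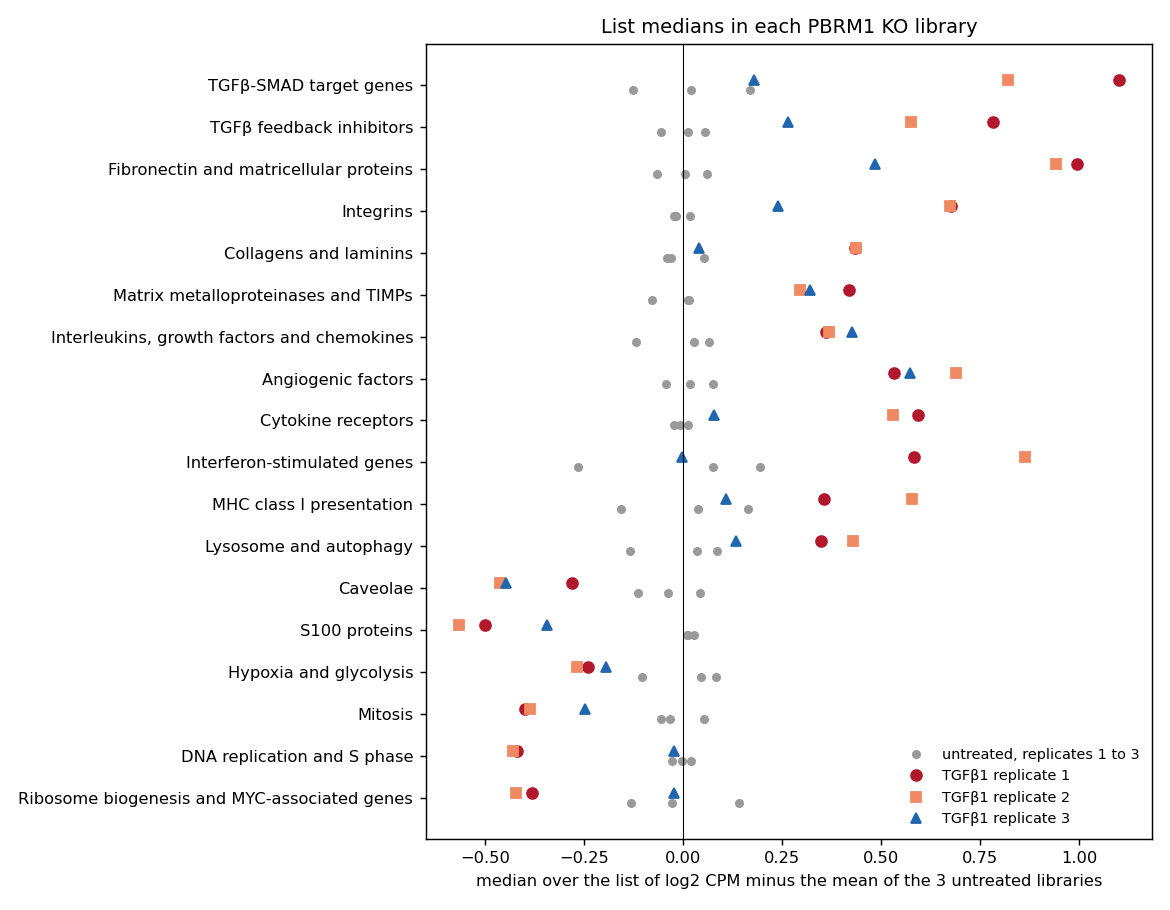
Median over each of 18 gene lists of log2 CPM minus the mean of the 3 untreated PBRM1 KO libraries, with untreated libraries in grey and treated replicates 1, 2 and 3 as red circles, orange squares and blue triangles. Treated replicate 3 lies within the range of the untreated libraries for interferon-stimulated, S phase and ribosome biogenesis genes (−0.00, −0.02 and −0.02). The same holds for collagens and laminins (0.04) and MHC class I presentation (0.11). Treated replicate 3 lies with the other treated libraries for cytokines (0.43), angiogenic factors (0.57) and caveolae (−0.45).

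The same contrast in control cells gave 826 higher (5.89%) and 408 lower genes (2.91%), or 8.81% in either direction. Of the genes higher in PBRM1 KO cells 638 were also higher in control cells, 59.5% of the PBRM1 KO calls and 77.2% of the control calls. Of the lower genes 262 were shared, 50.3% and 64.2%. No gene was called in opposite directions, and 1065 of 1072 higher and 515 of 521 lower genes had the same sign in control cells. The log2 fold changes of all tested genes had a Pearson r of 0.855 between genotypes, across genes, which are not independent replicates. For the genes called in PBRM1 KO cells the median size of the change was 0.77 in those cells and 0.61 in control cells; the genes were chosen on the first of these values, and the part of that choice in the difference was not tested.

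The test of the difference itself, the interaction of genotype and TGFβ1, called 0 genes with edgeR (smallest adjusted p = 1.00), 0 with DESeq2 and 0 with limma-voom. With edgeR 247 of 14012 genes had an unadjusted p below 0.05, fewer than that threshold alone would give if no gene differed. With no filter on low counts edgeR called 18 of 33568. Nothing in the response is therefore called particular to PBRM1 KO cells. The 6 genes with the smallest interaction p at 10 CPM or more are given as values. Id1 was at log2 −1.11 ± 0.16 in PBRM1 KO cells and −0.14 ± 0.16 in control cells (interaction −0.97 ± 0.22), and Cldn4 at 1.12 ± 0.20 and 0.20 ± 0.19 (interaction 0.92 ± 0.27). Il1a was at 3.72 ± 0.28 and 2.20 ± 0.24 (interaction 1.52 ± 0.36), on means of 107 CPM untreated and 493 CPM treated in control cells. Gng11, a G protein γ subunit, was at 2.72 ± 0.22 and 1.75 ± 0.21. Casp9 was at 0.45 ± 0.12 and −0.19 ± 0.12, and Dynap at −0.16 ± 0.12 and −0.81 ± 0.12. The adjusted interaction p was 1.00 for each of the 6.

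**Figure D4:**
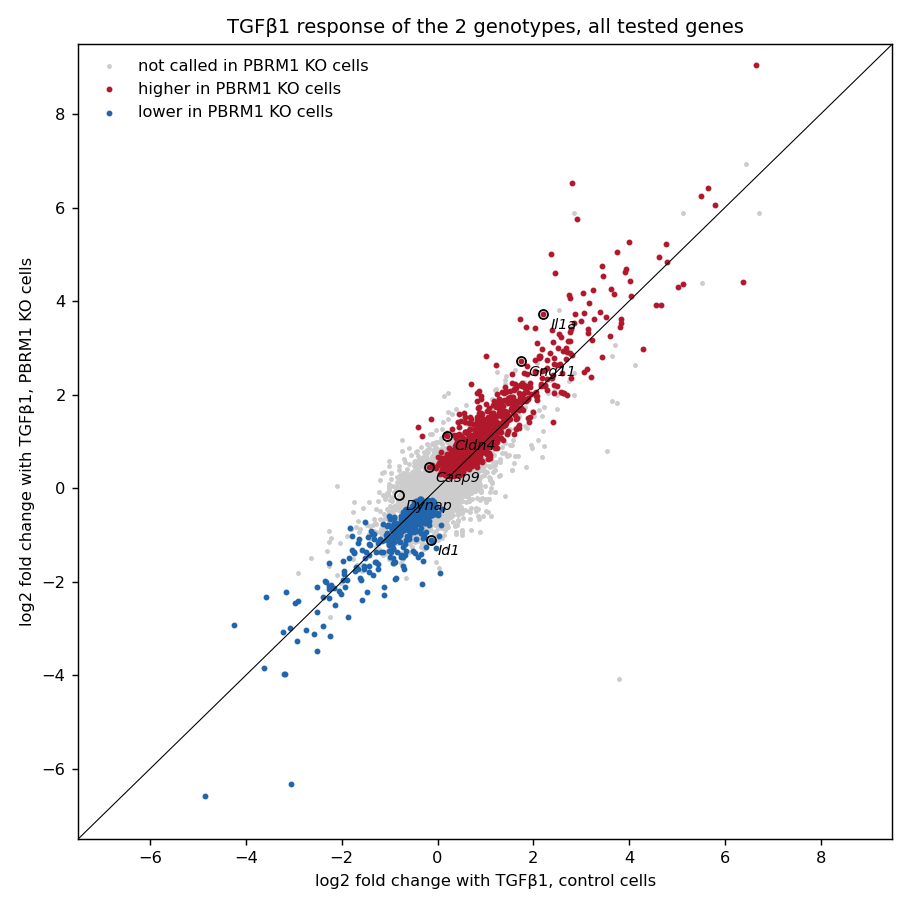
Log2 fold change with TGFβ1 in PBRM1 KO cells against that in control cells for all 14012 tested genes, with genes called higher or lower in PBRM1 KO cells in red and blue and the line of equal change in black. Circled are the 6 genes with the smallest interaction p; 1065 of the 1072 red and 515 of the 521 blue points have the same sign on both axes.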

How the data were processed

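Poly(A) RNA was reverse transcribed, tagmented and sequenced single-end and stranded toward the 3′ end, and molecular identifiers removed duplicates, per the labels' protocols. The authors deposited, per the file headers, estimated counts per gene, 91.8% of them whole, and CPM, which the authors scaled to the library total. The submitters' processing notes name, without order, STAR 2.7.11 and fastp 0.24.0, Subread 2.1.1 with featureCounts, edgeR 3.38.4, SAMtools 1.22.1 and build mm39; annotation and settings are not given in the sources used here.

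Estimated counts were rounded and tested with edgeR 4.0.16 (R 4.3.3; filterByExpr, TMM, quasi-likelihood F test) in 1 fit over all 12 libraries, so that the groups shared an estimate of spread, with Benjamini-Hochberg adjustment over all 14012 tested genes. Fold changes are log2 ± SE, CPM values are the deposited ones, and per-library deviations use log2 CPM with a prior count of 2. The table held 78317 genes, and 92 transgene entries, all at 0 counts, were left out. The procedure was tested on simulated counts with a common spread for all genes and no library that stood apart. That test therefore does not cover a library such as treated replicate 3. The gene lists and the tests were chosen with earlier results of these data known.

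Named genes are the 15 largest rises and 15 largest falls (adjusted p below 0.05, mean of at least 10 CPM, groups not overlapping, symbols that are not accessions), at most 4 members of each list per direction by smallest p, or the 2 with the smallest p where none passed, a panel of 15 TGFβ-related genes, and the 6 smallest interaction p. Lamb3, Lama3, Gsdmd, Csf3, Il11, Il1b, Il34, Cx3cl1, Sparc, Postn, Thbs1, Fbn1, Matn2, Csf1r and Fcer1g were named after their values were seen. Reads shared between genes gave fractional counts, pointed out beside genes with them in at least 10 of 12 libraries; Adam12, Casp8, Ccn2, Fth1, Krt8, Mafg, Runx1, S100a3 and Serpinh1 had them in 8 and Slbp in 9. Some genes that the rule names are not reported here.

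Nothing beyond the term biological replicates says how cultures were kept apart, so p-values measure the spread between these samples. Same-numbered untreated and treated PBRM1 KO libraries deviated together (correlations of 0.201, 0.139 and 0.202, against −0.174 to −0.0229 for other pairs). Deviations were taken from each group's mean, so positive values for same-numbered pairs push those of other pairs down. The numbers were taken to pair the libraries, and a fit with the replicate as a block was added. The other alternatives were RLE scaling, library totals, no filter, at least 10 CPM, DESeq2 1.42.0, limma-voom (limma 3.58.1), unrounded counts, the 6 PBRM1 KO libraries alone and each library left out. With 10042019 to 11250850 counts per PBRM1 KO library, 3 libraries a group limit the precision.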

Additional observations from a re-analysis of the deposited data

How the results depend on the processing

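Against 1072 higher and 521 lower genes, the replicate block gave 1682 and 1098, leaving out both treated replicate 3 libraries gave 2277 and 1707, and no filter on low counts gave 913 lower genes; the cause was not tested. No filter also gave 18 interaction genes against 0. Leaving out 1 library at a time gave 438 to 1726 higher and 175 to 1333 lower genes and 0 interaction genes. Counts under RLE scaling, library totals, at least 10 CPM, DESeq2, limma-voom, unrounded counts and the 6 PBRM1 KO libraries alone, with or without the block, were within 1.5 times of the main ones (800 to 1258 higher, 380 to 691 lower). The CAGAC share, read only in the bases before the start, was 43.4% of higher and 43.6% of lower genes, against 50.1% and 48.7%; the window is shorter. Of 255 named genes 243 were called, none reversed under any of these settings, and 123 kept their call when each PBRM1 KO library was left out in turn. The block lost no call among them and added Rpl14 (adjusted p = 0.0470), Rps15 (0.0407; fractional counts in 11 of 12 libraries), Dkc1 (0.0423) and mt-Nd6 (0.0155); it changed no other call of a named gene. Without both treated replicate 3 libraries Evpl was lost. DESeq2 lost 8 calls, those of Ptpn22, Marveld3, Jup, Evpl, Me1, Dpf1, Esr1 and Casp9, and limma-voom lost 24. Fitted fold changes of Cd40, Pdgfrb, Mmp12, Wnt11, Notch4 and Loxl2 rest on few untreated counts.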

Other observations

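Genes below the level required for naming, chosen here after their values were seen, also separated the groups. Trbc1, the constant region of the T cell receptor β chain, had 0 counts in the 3 untreated PBRM1 KO libraries and 7.93, 9.11 and 2.06 CPM with TGFβ1, 198.5 counts in all, at least 68.7-fold higher against a floor of 3 counts over the untreated group (adjusted p = 0.00162). Cd3e, which T cells require for that receptor, had 2 counts in all 6 libraries, and in control cells Trbc1 had a mean of 0.0656 CPM untreated and 7.66 CPM with TGFβ1. Prdm1, the transcriptional repressor BLIMP1, went from 0.533, 0.0910 and 0.185 to 28.0, 27.0 and 2.77 CPM (log2 6.06 ± 1.24, adjusted p = 0.00783). The fitted fold change of Prdm1 rests on few untreated counts. Treated replicate 3 was the lowest treated library for both genes and above all untreated ones.

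Some genes of low level also fell in each treated library. Scn3a, a neuronal sodium channel subunit, went from 11.8, 11.3 and 8.83 to 0.849, 0.498 and 1.88 CPM (log2 −3.28 ± 0.44, adjusted p = 0.000609). Kitl, the ligand of the receptor KIT, went from 10.7, 7.28 and 11.2 to 0.849, 0.996 and 1.88 CPM (log2 −2.95 ± 0.27, adjusted p = 4.16e-05). All 3 treated libraries lay below all untreated ones in both. By annotation class, 69 of 1329 long non-coding RNA genes rose and 31 fell, and 5 of 1023 pseudogenes rose and 14 fell, against 7.65% and 3.72% of all tested genes.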
